A study of Arabidopsis thaliana with 9 samples.

Results

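The microRNAs miR165 and miR166 were described here in shoots of *Arabidopsis thaliana* under 3 iron conditions. The members were the rows of the small RNA table named ath-MIR165a and ath-MIR165b and those named ath-MIR166a to ath-MIR166g, chosen by name and not by their values. They are 9 rows, 2 for miR165 and 7 for miR166, of 326 miRNA rows and of 33171 features in all, the others being 29053 small RNA clusters and 3792 sequences without a place in the genome. All plants were wild type of the ecotype Col-0. They were first grown for 14 days on 1/2X MS medium with Fe. The +Fe plants were then kept with Fe for 3 days and for a last 24 hours. The -Fe plants were kept without Fe over both of these periods, and the Fe resupply plants spent the 3 days without Fe and the last 24 hours with Fe again. Small RNA-seq was done on whole shoots, with 3 libraries per condition that the labels call biological replicates. The labels do not say whether these came from separate cultures, so that the p-values measure only the spread between these libraries. As whole shoots were used, fewer cells of a type and less RNA per cell cannot be told apart. The table holds small RNAs, and the shoot label was not checked against marker transcripts.

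miR165 and miR166 are among the best known regulators of leaf polarity. They guide ARGONAUTE proteins to the mRNAs of the HD-ZIP III transcription factors PHABULOSA (PHB), PHAVOLUTA (PHV), REVOLUTA (REV), CORONA (CNA) and ATHB8. These factors specify the upper (adaxial) side of the leaf, maintain the shoot meristem and pattern the vasculature, and the miRNAs clear their mRNAs from the lower (abaxial) side. AGO10, which binds miR165 and miR166 and withholds them from AGO1, protects the factors in the meristem.

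Both miRNAs are cut from the 3′ arm of their hairpins. The sequences are shown because the members can be told apart by them only in part. They were read from the RefSeq genome TAIR10.1 at the annotated mature miRNAs, all 9 of which were found, and the capitals mark the seed, bases 2 to 8 from the 5′ end.
miR165 (ath-MIR165a, ath-MIR165b): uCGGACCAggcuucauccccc
miR166 (ath-MIR166a to ath-MIR166g): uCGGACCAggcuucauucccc
They are 21 nt long and differ by the substitution C17U, given from miR165 to miR166 and counted from the 5′ end. The seed was found in 9 of the 428 mature miRNAs annotated, and all 9 are these. The 2 miR165 loci share their mature sequence, as do the 7 miR166 loci, and the genome holds 2 exact matches to the first and 7 to the second. A read of the mature miRNA therefore cannot be given to a single locus. How such reads were shared among the loci is not given in the sources used here, so that the level of each row is uncertain and the rows are not independent measurements. The 5′ arms differ more between loci. They are annotated for 4 members and are shown because they are the strands by which some loci can be distinguished.
ath-MIR165a 5′ arm: ggaauguugucuggaucgagg
ath-MIR166a and ath-MIR166b 5′ arm: ggacuguugucuggcucgagg
ath-MIR166e 5′ arm: ggaauguugucuggcacgagg

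The loci lie on all 5 chromosomes. On TAIR10.1, MIR165a (AT1G01183) is at chr1:78927-79037 and MIR165b (AT4G00885) at chr4:369831-370012, both on the minus strand. MIR166a (AT2G46685) is at chr2:19176108-19176277 and MIR166b (AT3G61897) at chr3:22922206-22922325, both on the plus strand. The other miR166 loci are on chromosome 5. MIR166c (AT5G08712, chr5:2838635-2838773) and MIR166d (AT5G08717, chr5:2840622-2840734) are neighbours on the plus strand, 1848 nt apart. MIR166e (AT5G41905) is at chr5:16775520-16775662 on the minus strand, and MIR166f (AT5G43603, chr5:17516301-17516405) and MIR166g (AT5G63715, chr5:25504798-25504919) are on the plus strand. Each locus overlapped exactly 1 small RNA cluster of the table, and in all 9 of these clusters the most abundant RNA was the annotated mature miRNA. The clusters are no second measurement of the members. In 4 members (ath-MIR165b, ath-MIR166c, ath-MIR166d and ath-MIR166g) row and cluster held the same values in all 9 libraries. In the others they differed by at most 0.20 on the log2 scale. The same values thus stand more than once among the features behind the shares of all features given below, and 68 of the 326 miRNA rows had the values of a cluster.

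The sites in the target genes are shown because the base that differs between the miRNAs faces a different base in a single one of them. Each site is 21 nt long, lies in the coding sequence and runs across an exon junction, with 11 bases in the upstream and 10 in the downstream exon. Capitals mark bases that do not form a Watson-Crick pair with the miRNA named.
PHB and PHV, against miR165: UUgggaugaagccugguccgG
PHB and PHV, against miR166: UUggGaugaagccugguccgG
REV and ATHB8, against miR165: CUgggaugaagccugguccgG
REV and ATHB8, against miR166: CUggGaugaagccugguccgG
CNA, against miR165: CUggAaugaagccugguccgG
CNA, against miR166: CUggaaugaagccugguccgG
The genomic spans, intron included, are chr2:14642530-14642666 for PHB, chr1:10799330-10799445 for PHV, chr1:19412976-19413085 for CNA and chr4:15866872-15866974 for ATHB8, all on the minus strand, and chr5:24398787-24398898 on the plus strand for REV. With 0.5 counted for a G:U pair and 1 for a mismatch, PHB, PHV, REV and ATHB8 had a penalty of 2.5 against miR165 and of 3.0 against miR166. In these 4 genes the base facing miRNA position 17 is a G, which pairs with the C of miR165 and forms a G:U pair with miR166. In CNA it is an A, and the penalty was 3.5 against miR165 and 2.5 against miR166. The pairing score describes the letters only, and target mRNA levels were not analysed here.

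The 9 rows covered a wide range of levels, and ath-MIR166a stood far above the others. All levels below are the deposited log2 normalized values, on which a difference of 1 is a doubling. ath-MIR166a was at 14.05 ± 0.02 in +Fe (SD, n = 3, as for all values after ±), the row ranked 4 among the 326 miRNA rows by its mean over all libraries. It made up 69.4% to 71.2% of the back-transformed sum over the 9 rows in every library. ath-MIR165b, at 11.16 ± 0.04 in +Fe, ath-MIR165a, at 11.16 ± 0.03, and ath-MIR166e, at 11.08 with an SD of 0.0032, followed and ranked 17, 18 and 19. Each of these 3 rows made up between 8.79% and 10.3% of the family sum. The remaining rows were much lower. ath-MIR166c was at 7.59 ± 0.05 in +Fe, ath-MIR166f at 6.14 ± 0.17, ath-MIR166g at 5.35 ± 0.13, ath-MIR166d at 5.19 ± 0.09 and ath-MIR166b at 4.52 ± 0.04, which ranked it 144 among the miRNA rows. ath-MIR166b, which shares both its mature sequence and its annotated 5′ arm with ath-MIR166a, thus made up at most 0.110% of the family sum.

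In this order, ath-MIR165b and ath-MIR165a, ath-MIR165a and ath-MIR166e, and ath-MIR166g and ath-MIR166d were neighbours whose ranges over the 9 libraries overlapped. The other neighbours did not overlap. Divided by the length of the annotated MIR gene, the back-transformed levels kept ath-MIR166a first and the 5 lowest rows in their places, while ath-MIR165a and ath-MIR166e moved ahead of ath-MIR165b. The most abundant RNA in each cluster was the mature miRNA, of the same length in all rows. The second order therefore also reflects the annotated lengths.

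**Figure D1:**
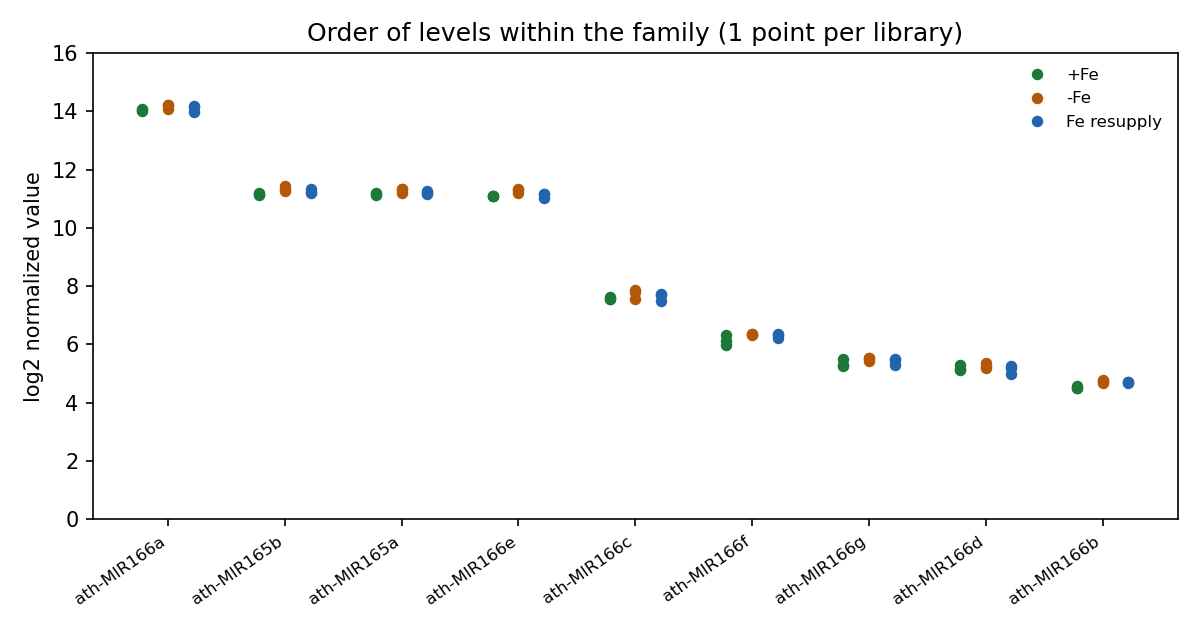
Deposited log2 normalized value (vertical axis) of each miR165 and miR166 row (horizontal axis, ordered by mean level), with 1 point per library and the 3 conditions in separate colours. ath-MIR166a lies near 14 in all libraries, ath-MIR165b, ath-MIR165a and ath-MIR166e lie near 11, and ath-MIR166b is the lowest row.

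The first comparison asked whether iron deficiency changed the level of these miRNAs. None of the 9 rows passed the test, although the mean of every row was somewhat higher in -Fe than in +Fe. The log2 fold changes ran from 0.08 for ath-MIR166d to 0.21 for ath-MIR166b, with a median of 0.15. Single libraries moved several of these values: with 1 library left out at a time, ath-MIR166d ranged from 0.04 (without -Fe replicate 1) to 0.14 (without +Fe replicate 3), ath-MIR166c from 0.08 (without -Fe replicate 3) to 0.24 (without -Fe replicate 2) and ath-MIR166f from 0.12 (without +Fe replicate 3) to 0.29 (without +Fe replicate 1). The median was 0.01 over the 305 other miRNA rows tested and -0.0015 over all 33159 features tested. The differences were tested with limma over all features, with Benjamini-Hochberg adjustment, and a row was called when its FDR was under 0.1 and its absolute log2 fold change 0.5 or more.

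For ath-MIR166a, the values in +Fe were 14.02, 14.07 and 14.04, those in -Fe were 14.21, 14.06 and 14.22, and those in Fe resupply were 14.17, 14.16 and 13.99. The -Fe library of replicate 2 lay within the +Fe values, and so the ranges overlapped. Between -Fe and +Fe the log2 fold change was 0.12 with a standard error of 0.08 (adjusted p = 0.783, limma). Quantile normalization changed this value to 0.35 (adjusted p = 0.000147, limma), which is past the FDR limit but below that on the fold change. With median centring it was 0.11 (adjusted p = 0.800, limma).

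For ath-MIR165a, +Fe gave 11.13, 11.19 and 11.16, -Fe gave 11.34, 11.21 and 11.34, and Fe resupply gave 11.28, 11.21 and 11.18. The 3 -Fe libraries were all above the 3 +Fe libraries, the nearest by 0.02, with a log2 fold change of 0.14 and a standard error of 0.08 (adjusted p = 0.743, limma). The other copy, ath-MIR165b on chromosome 4, was at 11.12, 11.20 and 11.15 in +Fe, at 11.34, 11.25 and 11.42 in -Fe and at 11.32, 11.18 and 11.23 in Fe resupply. Its -Fe libraries also lay above all +Fe libraries, and the log2 fold change was 0.18 with a standard error of 0.08 (adjusted p = 0.6002, limma).

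ath-MIR166e was the row with the closest +Fe libraries. It was at 11.08 in each of the 3 +Fe libraries, at 11.32, 11.18 and 11.30 in -Fe and at 11.16, 11.17 and 11.02 in Fe resupply. The -Fe libraries stood apart from those of both other conditions, and the log2 fold change over +Fe was 0.19 with a standard error of 0.08 (adjusted p = 0.592, limma). ath-MIR166b, the lowest row, was at 4.51, 4.49 and 4.57 in +Fe, at 4.68, 4.73 and 4.78 in -Fe and at 4.70, 4.71 and 4.68 in Fe resupply. Here the libraries of -Fe and of Fe resupply all lay above those of +Fe. The log2 fold change of -Fe over +Fe was 0.21 with a standard error of 0.09 (adjusted p = 0.546, limma). That adjusted p was the lowest of the 9.

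ath-MIR166f was spread over 5.98 to 6.32 in +Fe and lay between 6.32 and 6.35 in -Fe, so that the conditions were apart by 0.0031 only. For ath-MIR166c, ath-MIR166g and ath-MIR166d, the ranges of -Fe and +Fe overlapped. ath-MIR166c was at 7.55 to 7.64 in +Fe and at 7.54 to 7.86 in -Fe, ath-MIR166g at 5.27 to 5.49 and 5.42 to 5.53, and ath-MIR166d at 5.11 to 5.29 and 5.19 to 5.36.

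**Figure D2:**
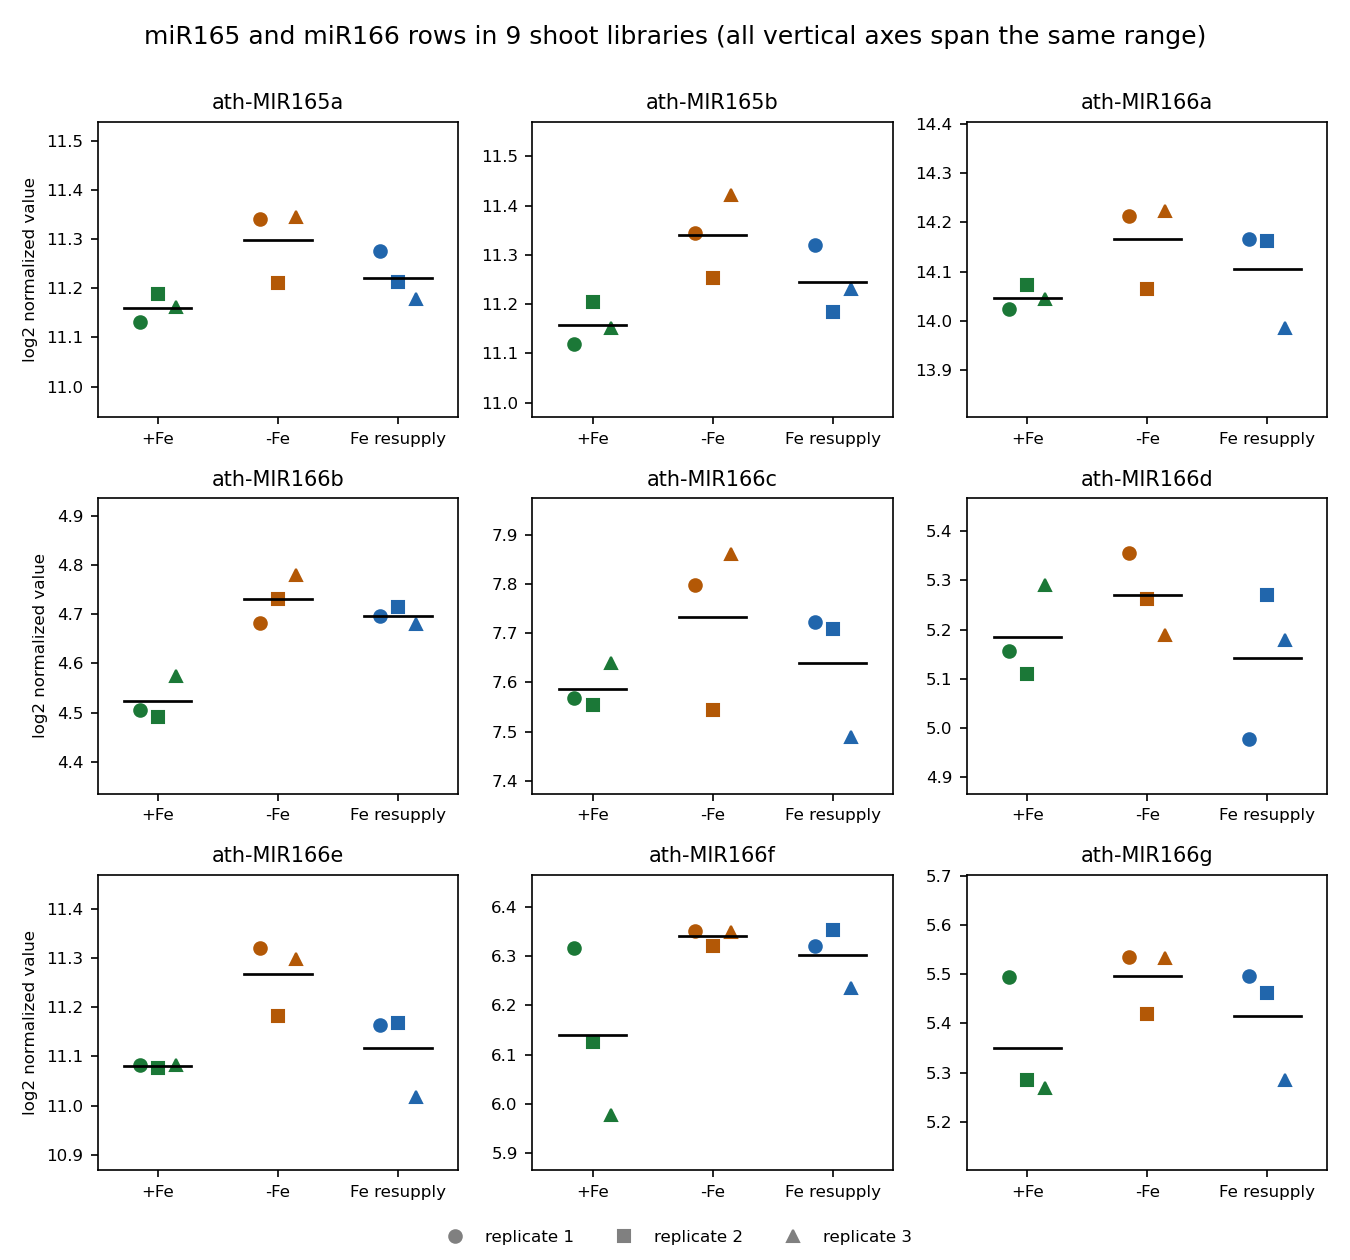
Deposited log2 normalized value (vertical axis) of each of the 9 rows in the 3 conditions (horizontal axis), with symbols for the replicate number and a black line at the mean of the 3 libraries. The vertical axes start at different levels but all span the same range, and the -Fe mean is the highest of the 3 in each panel.

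Over the family, 0 of 9 rows were called between -Fe and +Fe, where 0.504% of all features and 2.3% of the other miRNA rows were. With an unadjusted p under 0.05 there were 3, ath-MIR165b, ath-MIR166b and ath-MIR166e, against 8.02% of all features. In 5 rows (ath-MIR165a, ath-MIR165b, ath-MIR166b, ath-MIR166e and ath-MIR166f) the 3 -Fe libraries were all above the 3 +Fe libraries, which held for 7.15% of all features and 9.51% of the other miRNA rows. All 9 fold changes were positive, as were 49.5% of those of all features. These counts cannot be read as 9 separate observations, as the rows share mature sequences. The 95% intervals of the 9 log2 fold changes reached from -0.12 to 0.40 and thus stayed below the limit of 0.5 in every row. They hold for the deposited values, which may understate the fold changes of the low rows.

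The next comparison asked whether shoots given Fe again differed from those that had never lacked it. The log2 fold changes of Fe resupply over +Fe were smaller, from -0.04 for ath-MIR166d to 0.17 for ath-MIR166b, and 8 of the 9 were positive (49.2% of those of all features). The median was 0.06 over the 9 rows, 0.02 over the other miRNA rows and -0.0017 over all features. No row was called (background 0.127% of all features, 2.62% of the other miRNA rows), and 0 rows had an unadjusted p under 0.05 (6.63% of all features) in limma. The adjusted p-values lay between 0.770 and 0.983. ath-MIR166b was the only row whose 3 Fe resupply libraries all lay above the 3 +Fe libraries (5.35% of all features). The 95% intervals reached from -0.25 to 0.37.

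Fe resupply was then compared with continued deficiency. All 9 rows had a lower mean after resupply, where 50.8% of all features had a higher one, with log2 fold changes from -0.15 for ath-MIR166e to -0.03 for ath-MIR166b and a median of -0.08, beside 0.02 for the other miRNA rows and 0.0022 for all features. Again none was called (background 0.528%, and 1.31% of the other miRNA rows), and none had an unadjusted p under 0.05 (11% of all features). The adjusted p-values were 0.549 to 0.937 in limma, and the 95% intervals reached from -0.34 to 0.17. Only in ath-MIR166e were the Fe resupply libraries all below the -Fe libraries (8.7% of all features). In 8 of the 9 rows the Fe resupply mean lay between those of +Fe and -Fe, the exception being ath-MIR166d. The comparisons share libraries, so that a high -Fe mean enters the first and the last of them alike.

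**Figure D3:**
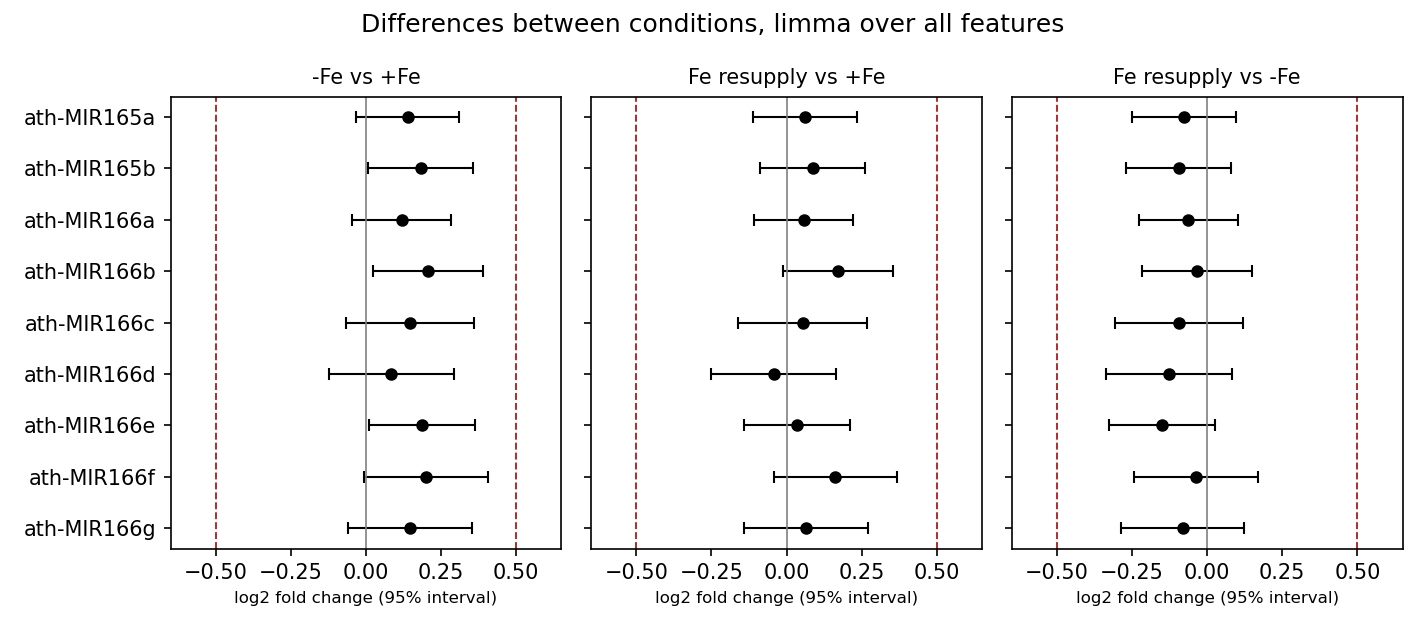
Log2 fold change (horizontal axis) of each row in the 3 comparisons, with points for the estimate and bars for the 95% interval from limma, and dashed lines at the limits of -0.5 and 0.5. Every interval stays within the limits, and those of ath-MIR165b, ath-MIR166b and ath-MIR166e lie above 0 between -Fe and +Fe.

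The -Fe library of replicate 2 was the lowest of its condition in 7 of 9 rows, and so was the Fe resupply library of replicate 3. In +Fe no library stood out in this way, and replicates 1, 2 and 3 were the lowest in 3, 4 and 2 rows. Over the 9 libraries, Pearson's r between pairs of rows ran from -0.06 to 0.95 with a median of 0.60 over 36 pairs. The lowest values were those of ath-MIR166d: its highest r with another row was 0.34, while the 28 pairs without it had an r of at least 0.39. This gap is small for an r over 9 libraries. These values describe rows measured in the same libraries and may contain shared reads, the extent of which is not known.

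As reads of the same mature miRNA cannot be given to single loci, the back-transformed values were also summed. The log2 sum over the 9 rows was 14.55 ± 0.02 in +Fe, with libraries from 14.53 to 14.58. In -Fe it was 14.69 ± 0.09, with libraries from 14.59 to 14.74, and in Fe resupply it was 14.61 ± 0.09, with libraries from 14.51 to 14.67. All -Fe libraries were above all +Fe libraries, whereas Fe resupply overlapped with both. The sum of the 2 miR165 rows was 12.16 ± 0.04 in +Fe, 12.32 ± 0.08 in -Fe and 12.23 ± 0.06 in Fe resupply. The sum of the 7 miR166 rows was 14.25 ± 0.02, 14.38 ± 0.09 and 14.30 ± 0.10 in the same order.

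The share of each miRNA in the family overlapped between all conditions. miR165 made up 19.0% ± 0.164 of the family sum in +Fe, 19.4% ± 0.227 in -Fe and 19.3% ± 0.968 in Fe resupply. The lowest and the highest share, 18.3% and 20.2%, were both found in Fe resupply libraries. The log2 ratio of miR166 to miR165 was 2.09 ± 0.02, 2.06 ± 0.02 and 2.07 ± 0.09 in +Fe, -Fe and Fe resupply, and the ranges of all conditions overlapped.

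As a share of the summed miRNA rows the family was higher in -Fe and in Fe resupply than in +Fe. The mean shares of abundant rows outside it were higher too. The family made up 9.14% ± 0.120 in +Fe, 11.2% ± 0.486 in -Fe and 10.5% ± 0.329 in Fe resupply, with the highest +Fe library, at 9.28%, below all libraries of the other conditions. The 3 most abundant miRNA rows, none of them in the family, had higher mean shares in these conditions as well. ath-MIR158a made up 13.2%, 16.1% and 16.5% in +Fe, -Fe and Fe resupply, ath-MIR161 12.7%, 14.96% and 13.5%, and ath-MIR159a 8.12%, 9.24% and 10.2%. For ath-MIR161, both other conditions overlapped with the +Fe libraries, which reached 14.5%. For ath-MIR159a, the -Fe libraries overlapped with the +Fe libraries, and those of Fe resupply lay above them. For ath-MIR158a, the libraries of both other conditions lay above all +Fe libraries.

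The denominator was lower in -Fe and in Fe resupply than in +Fe. The log2 sum of the other miRNA rows was 17.87 ± 0.0077 in +Fe, 17.68 ± 0.01 in -Fe and 17.70 ± 0.04 in Fe resupply. The lower sum was not matched by the median row, at 0.01 for the other miRNA rows in -Fe over +Fe, as given above. The 3 rows of miR398, which targets mRNAs of copper proteins, had a log2 sum of 15.83 ± 0.10 in +Fe, 14.30 ± 0.10 in -Fe and 13.98 ± 0.53 in Fe resupply. Without them the other rows summed to 17.46 ± 0.04 in +Fe, 17.53 ± 0.02 in -Fe and 17.58 ± 0.05 in Fe resupply. The +Fe sum was then the lowest instead of the highest. The share of the family was then 11.8% ± 0.10 in +Fe, 12.2% ± 0.454 in -Fe and 11.3% ± 0.522 in Fe resupply, and the -Fe and Fe resupply libraries both overlapped with the +Fe libraries. The separate share in -Fe and Fe resupply thus depended on the miR398 rows, which were left out after the data had been seen.

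**Figure D4:**
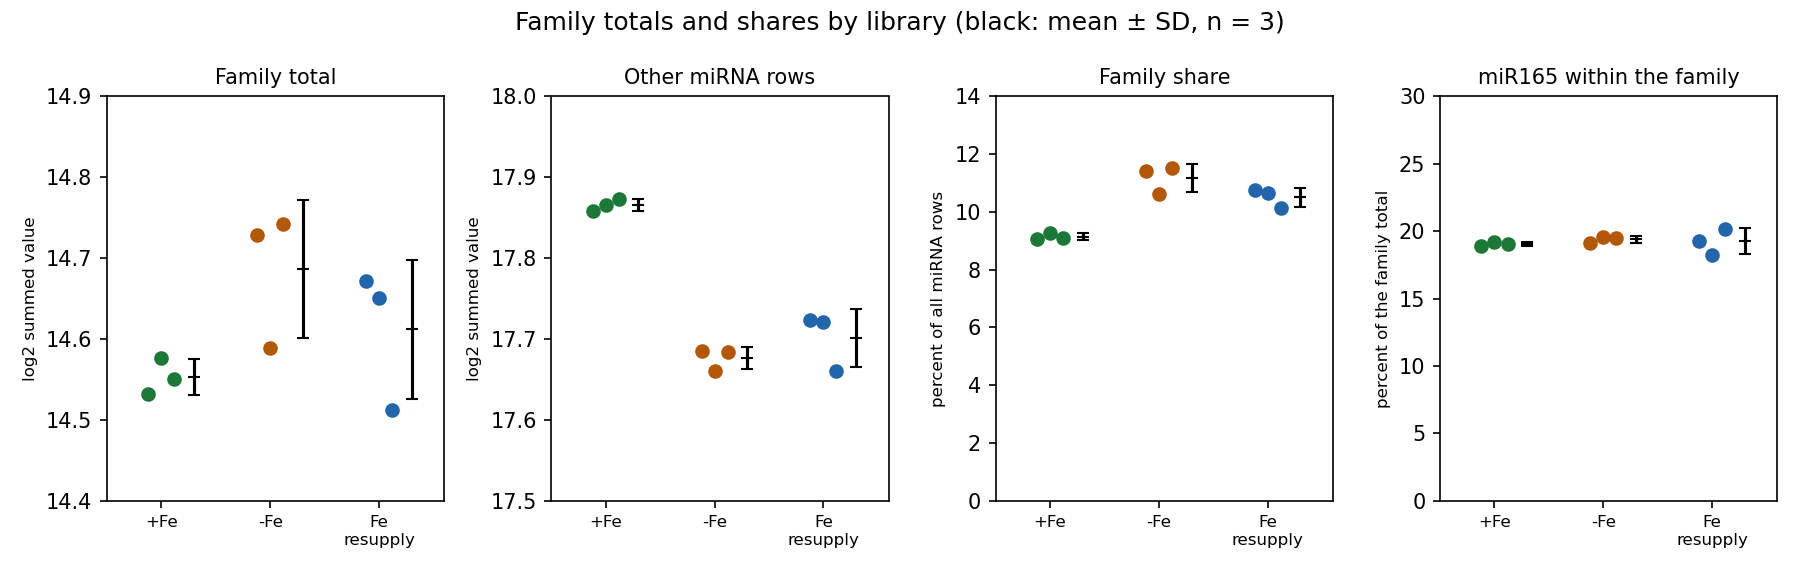
From left to right, the log2 sum of the 9 rows, the log2 sum of the other miRNA rows, the family in percent of all miRNA rows and miR165 in percent of the family (vertical axes), each by condition (horizontal axis) with 1 point per library and the mean ± SD in black. The mean family sum is 14.55 in +Fe and 14.69 in -Fe, while that of the other rows is 17.87 and 17.68, and the share of miR165 stays between 18.3% and 20.2%.

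Some sequences of the table had no place in the genome but carried the core of these miRNAs. Of the 3792 such sequences, 6 held bases 2 to 15 of the mature miRNA, and none of them had an exact match in TAIR10.1. In 4 of them the first 17 bases of miR166, of which 16 are shared with miR165, were followed by U only. They are shown because they begin like the miRNA but stand outside the 9 rows. Variants with a change in bases 2 to 15 were not searched for. Capitals mark the bases after the part shared with miR166.
19 nt: ucggaccaggcuucauuUU
20 nt: ucggaccaggcuucauuUUU
21 nt: ucggaccaggcuucauuUUUU
22 nt: ucggaccaggcuucauuUUUUU
The other 2 had the full length of 21 nt and differed from miR166 by U1A and C21U or by U1C and C21U, counted from the 5′ end. All 6 were low, with log2 values between 2.19 and 3.96 in all libraries, and none was called in any comparison.

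By a rule of likeness, the 3 other miRNA rows whose values followed the log2 family sum most closely over the 9 libraries were ath-MIR168b (Pearson's r = 0.90), ath-MIR5664 (r = 0.76) and ath-MIR390b (r = 0.73). The median r over the 305 rows searched was 0.05. miR168 targets the mRNA of AGO1, the main ARGONAUTE of plant miRNAs. ath-MIR168b was at 7.73, 7.75 and 7.73 in +Fe, at 8.15, 7.90 and 7.99 in -Fe and at 7.95, 7.93 and 7.77 in Fe resupply. Its -Fe libraries were all above the +Fe libraries, as in the family sum. A choice by likeness to that sum favours this order, which is therefore no separate observation. The log2 fold change of 0.28 between -Fe and +Fe was not called (standard error 0.09, adjusted p = 0.363, limma). ath-MIR5664 was higher in -Fe by 0.40 on the log2 scale, below the limit of 0.5 (standard error 0.10, adjusted p = 0.080, limma).

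Other parts of the polarity system were looked at through small RNAs made at their genes. miR390 with AGO7 triggers the production of tasiRNAs from TAS3, which restrict ARF3 and ARF4, factors of the abaxial side. ath-MIR390a was at 9.72 ± 0.12 in +Fe and 9.75 ± 0.04 in -Fe, and ath-MIR390b at 7.96 ± 0.06 and 8.04 ± 0.10. Neither was called in any of the 3 comparisons, nor was the TAS3 cluster (chr3:5861980-5862528), which was at 11.30 ± 0.10 in +Fe, 11.40 ± 0.0065 in -Fe and 11.54 ± 0.11 in Fe resupply. No small RNA cluster overlapped any of the 5 HD-ZIP III target genes. Of 18 other leaf polarity genes, 5 had at least 1 cluster, with 4 clusters at AGO1, 2 at ARF3 and 1 each at ARF4, TAS3 and YAB5, the last a YABBY factor of the abaxial side. None of these 9 clusters was called up or down in any comparison, and their log2 fold changes ran from -0.20 to 0.23. With an unadjusted p under 0.05 in limma there was 1 of the 9 between -Fe and +Fe (8.02% of all features), 1 between Fe resupply and +Fe (6.63%) and 2 between Fe resupply and -Fe (11%).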

How the data were processed

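Small RNA-seq libraries of Col-0 shoots (+Fe, -Fe and Fe resupply, 3 each) were analysed from a single table. Per the paper's methods, the authors removed adapters with Cutadapt, found and counted sRNA loci of 17 to 29 nt with ShortStack and compared conditions with DESeq2; tool versions are not given in the sources used here. The values used are log2 normalized values that the authors deposited, per feature and library. The transformation is not named. The values go from -2.15 to 21.61 and have the form of a regularized logarithm, in which case fold changes of low features are understated. Columns were given to libraries by the condition and number in their headers. Raw counts were not used here, so that the depth of the libraries is unknown and no counting interval was computed. Library medians were 3.83 to 3.87, libraries of a condition correlated at 0.994 to 0.996, and no pair was identical.

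Of 33171 features, 12 with one value in all libraries, none of them a member, were left out and 33159 were tested in a single limma 3.58.1 fit (R 4.3.3, eBayes with a trend) over the 9 libraries. A feature was called at an FDR under 0.1 (Benjamini-Hochberg over all features) with an absolute log2 fold change of 0.5 or more, which are the authors' limits. The fit was tested on simulated data with 200 changed features. Sums were made on back-transformed values. Sequences and loci came from RefSeq TAIR10.1, whereas the deposited clusters use TAIR10: of 28897 nuclear clusters, 91.3% held their most abundant RNA at the same coordinates. Gene and cluster were joined by an overlap of at least 1 nt. Named features were the 9 rows and their clusters, clusters at HD-ZIP III and other leaf polarity genes, ath-MIR390a and ath-MIR390b, and the 3 miRNA rows with the highest r to the family sum. The members and lists were chosen with earlier results of these data known. The alternatives were a filter on low values (mean back-transformed value of at least 10), log2(value + 1), median centring, quantile normalization, fits of 2 conditions only, eBayes without a trend, a replicate block, a stricter threshold, and leaving out each library.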

Additional observations from a re-analysis of the deposited data

How the results depend on the processing

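None of the 9 rows was called under any of the 16 alternatives or the stricter threshold. Of 432 log2 fold changes of members under alternatives, 428 kept their direction. The exceptions were ath-MIR166d between Fe resupply and +Fe, at 0.0096 without +Fe replicate 3 and 0.0394 without Fe resupply replicate 1 (range over left-out libraries -0.107 to 0.0394), and, under quantile normalization between Fe resupply and -Fe, ath-MIR165a at 0.0520 and ath-MIR165b at 0.0106. Quantile normalization also gave ath-MIR166a an adjusted p of 0.000147 between -Fe and +Fe, with a log2 fold change of 0.35, and of 0.00117 between Fe resupply and +Fe, with 0.30, both under 0.5; the cause was not tested. Under all other alternatives the lowest adjusted p of a member was 0.368. The difference in the log2 family sum was 0.13, 0.06 and -0.07 in the 3 comparisons and ranged from 0.11 to 0.18, from 0.03 to 0.11 and from -0.12 to -0.03 without single libraries. The difference in the family share of the miRNA rows, 2.04, 1.37 and -0.673 percentage points, became 0.468, -0.443 and -0.911 without the miR398 rows, an alternative chosen after seeing the data.

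Counts of all features called were 167, 42 and 175 in the comparisons of -Fe with +Fe, of Fe resupply with +Fe and of Fe resupply with -Fe. They were 26, 13 and 10 at an FDR under 0.05 and an absolute log2 fold change of 1 or more. Without single libraries they ranged from 121 to 236, from 26 to 122 and from 97 to 375. The lowest of the second range came without +Fe replicate 3 and the highest without Fe resupply replicate 1. For the last comparison the ends came without -Fe replicate 3 and without Fe resupply replicate 1. With the replicate block they were 227, 75 and 212. The labels do not say whether libraries of the same number were handled together, so that a pairing by number is unknown. Deviations of same-numbered libraries correlated at -0.0592 to 0.1038 in 9 pairs and those of other pairs at -0.1151 to 0.1577. These correlations over all features cannot decide the question. The block called no member.

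Values near 0 changed sign in ath-MIR390a (range without single libraries -0.0389 to 0.0770, -0.0480 to 0.0679 and -0.0552 to 0.0145 in the 3 comparisons; Fe resupply against -Fe 0.0080 with median centring and 0.0347 with quantile normalization), ath-MIR390b (-0.0551 to 0.0732 between Fe resupply and -Fe; -0.0018 with quantile normalization) and the TAS3 cluster (-0.0162 between -Fe and +Fe with quantile normalization). Depth was unknown, and shared mature sequences limit what any single row shows.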
